A study of Mus musculus with 127 samples.

Results

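The nuclear-encoded oxidative phosphorylation genes are the chromosomal genes for the subunits of the 5 enzyme complexes of the mitochondrial inner membrane and for cytochrome c. They were taken from the read count table by gene symbol: symbols that start with Nduf, Uqcr, Atp5, Cox4, Cox5, Cox6, Cox7 or Cox8, together with Sdha, Sdhb, Sdhc, Sdhd, Cyc1 and Cycs. Of the 53465 genes in the table, 108 carried such a symbol and 95 of these were protein coding, 13 pseudogene or noncoding rows being left out. The 95 genes comprised 36 of complex I (NADH dehydrogenase), 4 of complex II (succinate dehydrogenase), 9 of complex III (the cytochrome bc1 complex), cytochrome c, 20 of complex IV (cytochrome c oxidase), 17 of complex V (ATP synthase) and 8 Ndufaf assembly factors, which build complex I but are not part of it.

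Complexes I and II pass electrons from NADH and succinate to ubiquinone, complex III passes them on to cytochrome c, and complex IV hands them to oxygen. Complexes I, III and IV pump protons while they do so, and complex V uses the proton gradient to make ATP, most of which neurons spend on ion pumping and synaptic transmission. The mitochondrial genome encodes a small core of the subunits and nuclear genes encode the rest, so the chain is assembled from the products of both genomes. Striatal neurons are the cells most affected in Huntington's disease, and inhibitors of complex II are used in animals to produce striatal lesions.

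Each sample was the contents of 1 cell drawn into a patch pipette after recording (Patch-seq) and sequenced as its own library. Striatal neurons of newborn C57BL/6 mice, grown on microislands of cortical astrocytes, carried a lentivirus for human huntingtin exon 1 fused to GFP, with 97 glutamines (97Q, expanded) or 25 glutamines (25Q, normal length). RGFP109, an inhibitor of histone deacetylases 1 and 3, was given at 100 nM from day 6 in vitro and again every 3 days, and vehicle was DMSO; cells were taken at day 15. The groups were 97Q neurons with RGFP109 (26 cells: 8, 4 and 14 in batches 1, 2 and 3), 97Q neurons with vehicle (26 cells: 8, 3 and 15), 25Q neurons with RGFP109 (23 cells: 8, 4 and 11), 25Q neurons with vehicle (29 cells: 10, 4 and 15), untreated cortical astrocytes (14 cells, batch 3) and vehicle-treated neurons infected with the empty vector (9 cells, batch 3). A truncated exon 1 protein made from a virus in cultured newborn neurons is a partial model of the disease. No animal or culture was labelled, so the labelled batch served as the replicate (n = 3 per transgene group) and as the block. The p-values for repeat length and drug therefore measure how far the differences between groups varied from batch to batch.

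Total counts per cell had a median of 4440040 and ranged from 999700 to 9263305, and a cell had a median of 11911 genes with a count. Batch 2 was the shallowest in genes, its neurons having a median of 8877, while those of batch 1 had 12436.5 and those of batch 3 had 11844.5. Neuron markers summed to a median of 5303 to 7159 CPM (a gene's counts divided by the total of the library and scaled alike in every library) in the 5 neuron groups and to 299 CPM in the astrocytes, whose astrocyte markers summed to 8151 to 28203 CPM. The neurons also held astrocyte transcripts: 12 of the 113 had more than 10% of the astrocyte median of that list. The GABAergic striatal markers had a median sum of 1348 CPM in 97Q RGFP109, 1333 CPM in 97Q vehicle, 3080 CPM in 25Q RGFP109 and 2764 CPM in 25Q vehicle neurons, and their part in the values below was not tested. The empty vector libraries, labelled batch 3, lay nearer to the batch 1 neurons than to the other batch 3 neurons for several of the genes described here, so results that rest on them are also given without them.

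Promoter sequence from RefSeq (GRCm38.p6, 250 bases before to 50 bases after the start) was at hand for 75 of the 95 genes. Sequences are printed for 4 complex IV genes whose values recur below: the complex IV promoter with the most matches to known regulators of respiratory genes (Cox6a1), the promoter of the complex IV gene with the highest level (Cox6b1), that of its isoform (Cox6b2), and that of the complex IV gene that differed most between batches (Cox5a). They lie at chr5:115348909-115349208 on the minus strand (Cox6a1), chr7:30626065-30626364 on the minus strand (Cox6b1), chr7:4753045-4753344 on the minus strand (Cox6b2) and chr9:57520982-57521281 on the plus strand (Cox5a). Capitals mark exact matches, on either strand, to the NRF1 letters GCGCATGCG or the ETS letters CCGGAAG; the first run of capitals in Cox6a1 holds an NRF1 match on each strand, which overlap.
Cox6a1: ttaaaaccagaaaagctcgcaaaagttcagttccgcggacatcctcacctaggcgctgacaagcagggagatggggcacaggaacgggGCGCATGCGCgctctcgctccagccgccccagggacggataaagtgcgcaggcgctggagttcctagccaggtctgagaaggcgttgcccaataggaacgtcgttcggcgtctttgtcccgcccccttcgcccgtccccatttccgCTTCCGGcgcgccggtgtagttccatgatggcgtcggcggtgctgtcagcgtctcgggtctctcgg
Cox6b1: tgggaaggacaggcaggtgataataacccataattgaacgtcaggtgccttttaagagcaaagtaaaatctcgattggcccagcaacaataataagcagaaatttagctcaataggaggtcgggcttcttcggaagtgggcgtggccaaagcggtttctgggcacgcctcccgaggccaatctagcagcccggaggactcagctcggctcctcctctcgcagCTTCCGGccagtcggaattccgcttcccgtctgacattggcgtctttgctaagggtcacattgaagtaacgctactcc
Cox6b2: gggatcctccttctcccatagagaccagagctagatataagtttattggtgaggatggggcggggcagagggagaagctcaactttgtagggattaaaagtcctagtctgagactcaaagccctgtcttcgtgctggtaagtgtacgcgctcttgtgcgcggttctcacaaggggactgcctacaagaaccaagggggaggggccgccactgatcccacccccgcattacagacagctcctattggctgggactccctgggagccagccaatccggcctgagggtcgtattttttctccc
Cox5a: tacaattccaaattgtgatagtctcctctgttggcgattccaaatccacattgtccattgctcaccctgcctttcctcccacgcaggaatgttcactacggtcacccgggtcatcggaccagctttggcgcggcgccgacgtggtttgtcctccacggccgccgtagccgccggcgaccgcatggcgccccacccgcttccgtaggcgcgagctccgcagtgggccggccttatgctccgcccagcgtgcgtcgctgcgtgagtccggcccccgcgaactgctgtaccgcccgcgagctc
Cox6b2 and Cox5a held no match to either, nor to the YY1 letters ATGGCGGC or the ERR letters TCAAGGTCA. Among the 75 promoters the NRF1 letters were found in 11 (14.7%), against 1.8% of the 27025 promoters of all genes. The ETS letters were in 17 (22.7%, against 9.1% of all promoters), the YY1 letters in 7 (9.3%, against 2.4%) and the ERR letters in 2 (2.7%, against 0.4%). NRF1, the ETS factor GABP, YY1 and the ERR receptors are known regulators of respiratory genes, but a match is a description of the sequence and no evidence of binding. The commoner SP1 letters GGGCGG were in 34 promoters (45.3%, against 35.9% of all) and the TATA letters TATAAA in 7 (9.3%, against 14.2%), and the median GC content was 58.3%, against 52.7% for all promoters.

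Most respiratory chain genes stood well above the median gene in these neurons. Exceptions were 7 complex IV isoforms found in few cells and 5 tested genes below that median (Atp5g2, Atp5l, Cycs, Ndufab1 and Ndufb4). On a per-length scale (counts per kilobase of exon, scaled to the same total over all genes in each sum), the 88 genes that passed the filter below had a median level of 344 in the transgene neurons, against 15.0 for all 15091 genes that passed it; the filter removes low genes from both. By complex the median level was 959 for the 13 tested genes of complex IV, 498 for complex II, 477 for complex III, 350 for complex I, 326 for complex V and 83.0 for the assembly factors. Counts were found in every one of the 104 transgene neurons for 53 of the 95 genes, and 88 genes passed the filter of a count in at least 20% of these neurons. All 7 genes that failed it were complex IV isoforms, and they enter no count of tested genes below.

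**Figure D1:**
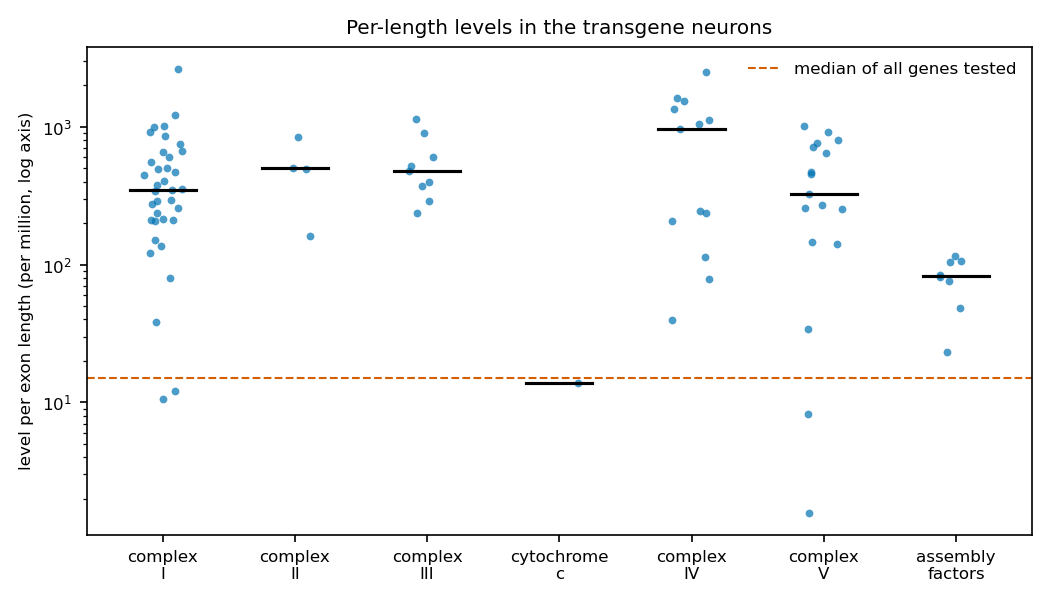
Per-length level (counts per kilobase of exon, scaled to the same total, log axis) of each tested gene in the 104 transgene neurons, 1 point per gene by complex, with a bar at the complex's median and a dashed line at the median of all genes tested (15.0). Complex IV has the highest median (959) and the assembly factors lie near 83.0, while a few genes such as Atp5g2 and Ndufab1 lie below the dashed line.

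The order within a complex and the order of the complex medians depend on which exons give the length. The levels here use all annotated exons of a gene. Ndufa1, an accessory subunit of the membrane arm of complex I, had a level of 2618 and Ndufa3 one of 1208, while Ndufab1, the mitochondrial acyl carrier protein, had the lowest of complex I at 10.5. In complex III, Uqcr10 (1134) and Uqcr11 (900), small subunits at its membrane edge, were highest and Cyc1, the haem-carrying cytochrome c1, was lowest at 238. In complex V the catalytic beta subunit Atp5b (1015) and the alpha subunit Atp5a1 (912) were highest. In complex II, Sdhd (850), a membrane anchor, was highest, followed by Sdhb (501), the iron-sulfur subunit, and Sdha (496), the flavoprotein; Sdhc, the other anchor, was lowest at 161. Ndufaf1 (116) and Ndufaf7 (107) led the assembly factors and Ndufaf2 (23.2) was last. Some low values fall on genes that share near-identical stretches with other annotated genes, which can take their reads. Stretches of at least 50 bases at 99% identity covered 72.2% of the longest coding transcript of Atp5l (level 8.18) and 40.2% of that of Ndufb4 (12.2). For Cox7c (39.5, the lowest tested gene of complex IV) the share was 32.9%, for Cycs (13.9) 32.1%, for Atp5g2 (1.58) 26.8% and for Ndufab1 13.5%. These are shares of the transcript and not of all exons. Whether a stretch lies elsewhere in the genome or in an overlapping gene was not checked. The order of levels within a complex is uncertain for these genes. With the length of the longest coding transcript in place of all exons, Ndufa4 (3659) passed Cox6b1 (2859) in complex IV. Likewise Atp5g3 (2299) passed Atp5b (2245) in complex V and Sdhb (982) passed Sdhd in complex II, while Ndufa1 and Uqcr10 stayed highest in complexes I and III. By that length the median of complex V passed those of complexes I, II and III, and that of complex IV stayed highest. The transcript length was chosen after seeing the data.

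Complex IV is the complex with tissue isoforms, and in each family 1 isoform carried nearly all of the signal. Cox4i1, the common form of the regulatory subunit, had a level of 1052, and Cox4i2, its lung and hypoxia form, had a count in only 4 of 104 neurons. Cox6a1, Cox8a and Cox7a2, the forms found in most tissues, had levels of 1543, 1342 and 1117. Their heart and muscle partners Cox6a2, Cox8b and Cox7a1 had a count in 17, 2 and 20 neurons, and the testis forms Cox7b2 and Cox8c in 7 and 0, while Cox7b had a level of 959. For Cox8c the 0 of 104 neurons allow a share of cells with a count of up to 2.88%. Cox7a2l, which helps to join complexes III and IV, had a level of 114. Ndufa4, now counted as a complex IV subunit, had a level of 1616, and its hypoxia-linked relative Ndufa4l2 had a count in 9 neurons. Cox6b1 had a level of 2496 and Cox6b2, known as the testis form, one of 79, and it was the 1 tissue-specific form of complex IV that passed the filter. Cox6b2 had 223 CPM in astrocytes and 5.28 CPM in empty vector neurons. How much of its level in the neurons came from astrocyte transcripts was not tested. The 3 genes for the membrane ring of complex V, whose mature protein is the same, were far apart: Atp5g3 had a level of 762, Atp5g1 of 34.3 and Atp5g2 of 1.58. Stretches near-identical to other genes covered 26.8% of the longest coding transcript of Atp5g2, 10.35% of that of Atp5g1 and 0.0% of that of Atp5g3. The size of these gaps is therefore uncertain.

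Together the 95 genes made up between 1.97% and 2.44% of counts in the transgene neurons, and the ranges over batches of the 4 groups overlapped. In CPM, which here compare the same genes between samples, the sums of batches 1, 2 and 3 were 20354, 15580 and 23137 in 97Q RGFP109 neurons (mean 19690 ± 3822, SD, n = 3), 24064, 26077 and 22911 in 97Q vehicle neurons (24351 ± 1602), 23430, 18708 and 21863 in 25Q RGFP109 neurons (21334 ± 2405) and 25737, 21067 and 22272 in 25Q vehicle neurons (23025 ± 2424). In the single batch of the others the sum was 16440 CPM in astrocytes and 23326 CPM in empty vector neurons. In batches 1 and 2 the 97Q RGFP109 sum was the lowest of the 4 transgene groups, and in batch 3 it was the highest. Single cells ranged far more widely, from 6520 CPM in a 97Q RGFP109 neuron to 64141 CPM in a 25Q vehicle neuron of batch 1. Without that last cell the 25Q vehicle mean was 21533 CPM.

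**Figure D2:**
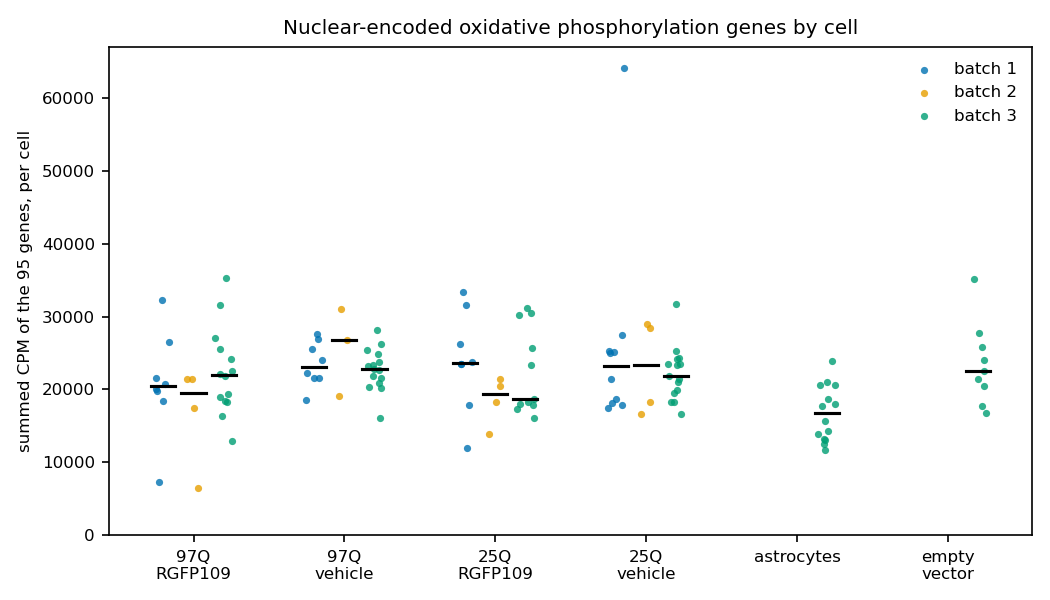
Summed CPM of the 95 genes in each of the 127 cells by group and batch (points), with a bar at the median of each group and batch. The neuron groups overlap throughout, 1 batch 1 cell of 25Q vehicle stands alone at 64141, and the 14 astrocytes lie between 11738 and 23857.

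Repeat length was compared first in vehicle, 97Q against 25Q. No gene of the chain passed the test: edgeR's quasi-likelihood test called 0 of the 88 genes, and 0 of all 15091 genes tested (0.0%), at an adjusted p of 0.05. At an unadjusted p of 0.05 it gave 1 of the 88 against 597 genes in all (3.96%). DESeq2 called 213 genes (1.41%) and limma-voom 0, with no respiratory gene among them. Complex I leaned higher in 97Q vehicle neurons, with 27 of 36 genes above 0 and a median log2 fold change of 0.27, and so did the 4 genes of complex II (4 of 4, median 0.25). Complex III had 4 of 9 genes higher (median -0.13), complex IV 5 of 13 (-0.14), complex V 10 of 17 (0.15) and the assembly factors 5 of 8 (0.39). The median over the 88 genes was 0.23 beside 0.06 over all genes tested. By batch it was -0.23, 0.73 and 0.13 in batches 1, 2 and 3 (0.04, 0.08 and -0.02 over all genes tested), and without batch 2 it was -0.07. The batch 1 value in turn rested on 1 cell: without the 25Q vehicle neuron of 64141 CPM the batch 1 median was 0.15 and the overall median 0.28, with 61 of 88 genes higher in 97Q vehicle. In batch 2 the 97Q vehicle sum came from 3 cells, with a median of 10296 genes each against 8965 in the 4 cells of 25Q vehicle, and it was the highest of the 4 sums of its batch for 50 of the 88 genes (56.8%) and for 30.9% of all genes tested.

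The gene with the smallest p was Ndufaf7, a methyltransferase that acts in complex I assembly. It had 61.2, 67.9 and 114 CPM in the 97Q vehicle sums, batch 1 to batch 3, against 100, 317 and 127 CPM in the 25Q vehicle sums. It was lower in 97Q in all 3 batches, by -0.70, -2.21 and -0.16 on the log2 scale, and the fitted difference was -1.0 (SE 0.429, unadjusted p = 0.0435, adjusted p = 0.969 in edgeR's quasi-likelihood test). Next came Ndufv3 (log2 fold change -0.62), Atp5k (-0.80), Ndufa2 (0.75), Atp5j (-0.46) and Ndufaf3 (1.21), each with an unadjusted p between 0.0654 and 0.117. Ndufv3 and Atp5k were lower in 97Q vehicle in all 3 batches. Ndufaf3, another complex I assembly factor, owed its value to batch 2, where it had 71.5 CPM in 97Q vehicle against 5.35 CPM in 25Q vehicle neurons. All 8 tested GABAergic striatal markers were lower in 97Q vehicle neurons, with a median of -3.18.

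RGFP109 was then compared with vehicle in 97Q neurons. The respiratory genes were mostly lower with the drug, 65 of 88 with a median log2 fold change of -0.22 beside -0.04 over all genes tested, but none passed the test. edgeR's quasi-likelihood test called 0 of 15091 genes, and at an unadjusted p of 0.05 it gave 1 of the 88 against 375 genes (2.48%). DESeq2 called 110 genes (0.729%), none of them respiratory, and limma-voom 0. By complex 27 of 36 genes of complex I were lower (median -0.20), 3 of 4 of complex II (-0.26), 7 of 9 of complex III (-0.09), 10 of 13 of complex IV (-0.20), 12 of 17 of complex V (-0.26) and 5 of 8 assembly factors (-0.55). The batch medians, in CPM by total counts, were -0.26, -0.67 and -0.10, against -0.02, -0.23 and 0.02 over all genes tested. Leaving out each batch in turn kept the overall median between -0.28 and -0.18. Of the neuron markers 6 of 7 were lower (median -0.45), but their batch medians were -0.08, -1.26 and 0.26. Of the astrocyte markers 9 of 14 were higher (median 0.50), with batch medians of -0.33, 0.05 and 0.61. The part of either list in the result was not tested. The 97Q RGFP109 sum of batch 1 was the lowest of 4 for 61 of the 88 genes (69.3%), against 26.0% of all genes tested. The 2 neurons with the lowest summed CPM of all, 6520 in batch 2 and 7223 in batch 1, were both 97Q RGFP109 cells and held only 962 and 1454 CPM of neuron markers. Without them 63 of 88 genes were lower, the median was -0.18 and the batch medians were -0.21, -0.26 and -0.10. The 7 tested genes of the mitochondrial genome were all higher (7 of 7, median 0.26), with batch medians of 0.20, 0.30 and -0.12.

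Atp5s, known as coupling factor B of ATP synthase, had the smallest p of any respiratory gene in the 5 comparisons. Its 3 sums, batch 1 to batch 3, held 44.4, 52.1 and 58.8 CPM in 97Q RGFP109 neurons, against 90.9, 193 and 145 CPM in 97Q vehicle neurons. The 2 groups of sums did not overlap, and how many of all genes showed such a gap was not counted. The difference was -1.02, -1.87 and -1.29 in the 3 batches (fitted log2 fold change -1.27, SE 0.383, unadjusted p = 0.0084, adjusted p = 0.999 in edgeR's quasi-likelihood test). In 25Q neurons the same gene had 36.1, 107 and 73.7 CPM with RGFP109, against 63.5, 241 and 79.7 CPM with vehicle (log2 fold change -0.75, unadjusted p = 0.0793). Both comparisons of Atp5s point downward with the drug, and neither passed the adjusted threshold. By cell the levels overlapped, at 0 to 189 CPM in 97Q RGFP109 neurons (median 43.3) and 0.980 to 385 CPM in 97Q vehicle neurons (median 123).

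Of the next 5 genes by p in 97Q neurons, Ndufs1, the largest iron-sulfur subunit of complex I, and Ndufa9 were lower with RGFP109 in every batch. Ndufs1 had 290, 187 and 297 CPM in 97Q RGFP109 against 370, 524 and 575 CPM in 97Q vehicle sums (log2 fold change -0.77, SE 0.354, unadjusted p = 0.0572). Ndufs3 (-1.09) and Ndufs7 (-0.92), 2 subunits of the electron-carrying arm of complex I, took their values mainly from batch 2: Ndufs7 had 174, 34.6 and 294 CPM in 97Q RGFP109 against 252, 193 and 272 CPM in 97Q vehicle sums. Atp5g2 (-1.87) had under 4 CPM in every sum.

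In 25Q neurons no respiratory gene passed a test of RGFP109 against vehicle. edgeR's quasi-likelihood test called 0 of 15091 genes, and 381 genes (2.52%) but 0 of the 88 had an unadjusted p under 0.05; DESeq2 called 143 genes (0.948%) and limma-voom 0, with no respiratory gene in either. The median over the 88 genes was -0.14 beside 0.00 over all genes tested, with 56 lower, but it was 0.01 without the 1 vehicle cell of 64141 CPM. Lower with RGFP109 were 22 of 36 genes of complex I (median -0.10), 8 of 9 of complex III (-0.22), 9 of 13 of complex IV (-0.34), 10 of 17 of complex V (-0.13) and 6 of 8 assembly factors (-0.39), while 3 of 4 genes of complex II were higher (0.21). After Atp5s the smallest p belonged to Ndufa5 (-0.45), Atp5k (-0.68), Cox7b (-0.35), Ndufaf2 (-1.16) and Cox7a2 (-0.34). Of these, Ndufa5, Cox7b, Ndufaf2 and Cox7a2 were lower with RGFP109 in all 3 batches.

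Under RGFP109, 97Q and 25Q neurons differed in 0 of 15091 genes by edgeR's quasi-likelihood test, in 277 genes (1.84%) by DESeq2 and in 4 genes (0.0265%) by limma-voom. The median over the 88 genes was -0.05, and 564 genes (3.74%) had an unadjusted p under 0.05, among them 2 of the 88: Sdhd and Atp5o. Sdhd had 253, 222 and 382 CPM in 97Q RGFP109 sums, against 322, 399 and 494 CPM in 25Q RGFP109 sums. It was lower in 97Q in each batch (-0.35, -0.85 and -0.37), the fitted log2 fold change was -0.46 (SE 0.19, unadjusted p = 0.0375, adjusted p = 0.999 in edgeR) and it was the 1 respiratory gene called by DESeq2 in any comparison of repeat length or drug (adjusted p = 0.0304). With vehicle, Sdhd had 307, 373 and 463 CPM in the 97Q sums, against 303, 313 and 428 CPM in 25Q sums, higher in 97Q in each batch. Atp5o, a stalk subunit of complex V, had a log2 fold change of -0.51 (SE 0.219, unadjusted p = 0.0434), and 47.9% of its exons overlap other annotated genes, so its counts are uncertain. Ndufs1 (-0.65), Uqcrc2 (-0.47), Ndufb8 (0.56) and Atp5j (-0.36) followed.

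The difference of the 2 drug effects, that in 97Q minus that in 25Q neurons, was tested as an interaction. edgeR's quasi-likelihood test called 0 of 15091 genes, 393 genes (2.6%) but 0 of the 88 had an unadjusted p under 0.05, DESeq2 called 70 genes (0.464%) and limma-voom 0. Of the 88 genes 58 were below 0 (median -0.2), but the batch medians were 0.01, -0.86 and -0.04 (0.03, -0.49 and 0.14 over all genes tested). Below 0 were 27 of 36 genes of complex I, 5 of 9 of complex III, 6 of 13 of complex IV, 11 of 17 of complex V and 4 of 8 assembly factors. Cycs had the lowest value, -2.05, with -0.85, -4.7 and -0.25 by batch. The 4 genes of complex II were all below 0 (median -0.37), led by Sdhd (-0.54, SE 0.269, unadjusted p = 0.0725 in edgeR), whose value was -0.37, -1.09 and -0.48 in the 3 batches. Atp5k (1.01), Ndufc2 (-0.72), Ndufa5 (0.55), Ndufaf7 (0.95) and Ndufs1 (-0.76) followed. The comparisons share samples, so their signs are not independent of each other: 97Q vehicle enters both the repeat length and the drug comparison.

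**Figure D3:**
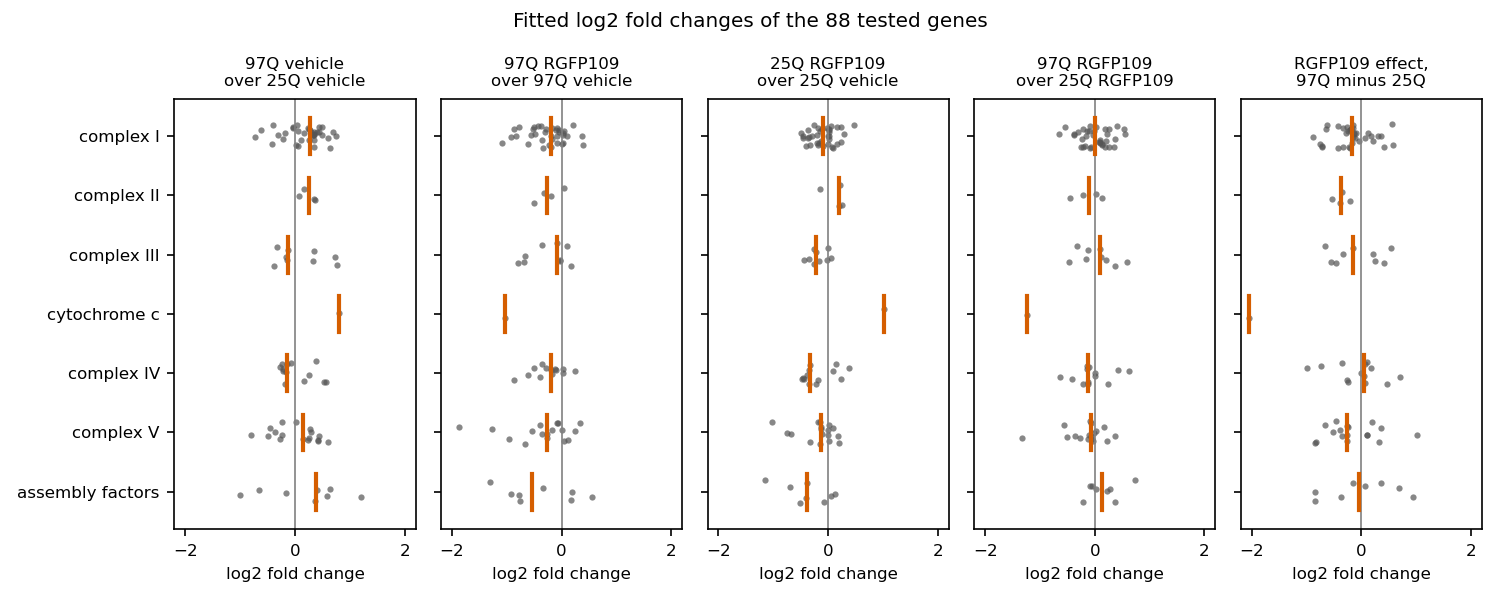
Fitted log2 fold changes of the 88 tested genes in the 5 comparisons, 1 point per gene by complex, with a bar at each complex's median; positive values are higher in the group named first. Complexes I, III, IV and V and the assembly factors have points on both sides of 0 in every comparison. The 4 genes of complex II lie on the same side in 97Q against 25Q vehicle and in the interaction. The single point of cytochrome c runs from -2.05 (interaction) to 1.02 (RGFP109 in 25Q neurons). No point passed an adjusted p of 0.05 in edgeR.

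Among other genes of mitochondrial energy metabolism no gene passed the test either. In 97Q against 25Q vehicle neurons edgeR called 0 genes among 7 tested genes of the mitochondrial genome (0 higher, median -0.37), 35 other assembly factors (18 higher, 0.01), 14 regulators of mitochondrial genes (6 higher, -0.09) and 13 enzymes of the citrate cycle (8 higher, 0.08). With RGFP109 against vehicle in 97Q neurons, 17 of 35 other assembly factors (median -0.10), 5 of 14 regulators (-0.33) and 4 of 13 citrate cycle genes (-0.13) were higher. In 25Q neurons the drug gave 3 of 7 higher for the mitochondrial genome (-0.21), 13 of 35 for other assembly factors (-0.21), 8 of 14 for regulators (0.32) and 6 of 13 for the citrate cycle (-0.08). Of these lists, Sdhaf2, a complex II assembly factor (-0.99, unadjusted p = 0.0205), and Cs, citrate synthase (0.95, unadjusted p = 0.0449), had an unadjusted p under 0.05 in 97Q against 25Q vehicle neurons, and none did in either drug comparison. In the interaction Polrmt, the mitochondrial RNA polymerase (5.14, SE 2.18, unadjusted p = 0.0413), and Suclg2, a subunit of succinyl-CoA ligase (6.43, SE 2.84, unadjusted p = 0.0487), were under 0.05, with an adjusted p of 0.998 for both in edgeR.

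Several respiratory genes had unlike levels in batches 3 and 1, among them Uqcrfs1, Cox5a and Cyc1, as did many other genes, and edgeR called none of the 88 there. Batch 3 was set against batch 1, and batch 2 against batch 1, over the same 12 sums, comparisons added after the data had been seen, and the genes named here were chosen after their values had been seen. Each batch is 1 batch of 4 sums that deviate together, so the SD and p of these comparisons measure the spread among sums, not among independent batches. Between batches 3 and 1, edgeR's quasi-likelihood test called 0 of the 88 genes and 122 genes in all (0.808%); at an unadjusted p of 0.05 it gave 17 of the 88, 8 lower and 9 higher in batch 3, against 1832 genes (12.1%). DESeq2 called 8 of the 88 and 1237 genes (8.2%), and limma-voom 8 of the 88 and 832 genes (5.51%). Cox5a, Cyc1, Uqcrfs1, Ndufab1, Ndufa9 and Sdhd were called by both. The median over the 88 genes was 0.04 beside 0.05 over all genes tested, and 46 of the 88 were higher and 42 lower.

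Uqcrfs1, the Rieske iron-sulfur protein of complex III, showed the smallest p. In the order 97Q RGFP109, 97Q vehicle, 25Q RGFP109 and 25Q vehicle its sums held 48.5, 22.4, 22.5 and 34.9 CPM in batch 3, against 294, 363, 289 and 252 CPM in batch 1. Every batch 3 sum was below every batch 1 sum, and the fitted log2 fold change was -3.06 (SE 0.574, adjusted p = 0.0501 in edgeR's quasi-likelihood test). Cox5a, a subunit of complex IV on the matrix side, had 79.1, 16.2, 26.4 and 37.3 CPM in batch 3, against 269, 322, 285 and 396 CPM in batch 1 (-2.91, SE 0.677, adjusted p = 0.0944). Cyc1 had 146, 41.8, 62 and 41.2 CPM in batch 3, against 281, 308, 337 and 273 CPM in batch 1 (-2.03, SE 0.567, adjusted p = 0.151). For all 3 genes the groups of sums did not overlap, and how many of all genes showed such a gap was not counted. No near-identical stretch or overlapping gene was found for Uqcrfs1 or Cyc1. For Cox5a, 42% of the longest coding transcript was near-identical to 1 other annotated gene, and 12.8% of its exons overlapped the gene Gm26631. Whether these are the same stretch was not checked.

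For Cox5a the single cells of batches 3 and 1 overlapped in range, but their medians lay far apart. Cox5a ranged from 51.5 to 1750 CPM (median 260) over the 34 neurons of batch 1, and from 0 to 449 CPM (median 14.4) over the 55 transgene neurons of batch 3, of which 51 lay below every empty vector neuron. Also lower in batch 3 were Ndufab1 (10.1 ± 4.91 CPM over the 4 sums of batch 3 against 48.7 ± 10.8 in batch 1, SD over the 4 sums of a batch), Ndufaf6 (3.06 ± 2.05 against 26.8 ± 5.58), Ndufa6 (83.0 ± 19.8 against 217 ± 74.2), Atp5d (116 ± 25.5 against 258 ± 35.9) and Atp5k (76.3 ± 4.10 against 149 ± 55.1). Higher in batch 3 were 9 genes with smaller changes, from a log2 fold change of 0.52 for Cox4i1 to 1.03 for Ndufv1, the NADH-binding subunit. Sdhd had 442 ± 48.4 CPM in batch 3 against 296 ± 29.9 in batch 1 (0.69, adjusted p = 0.0994), and Ndufa9 382 ± 62.5 against 225 ± 19.8 (0.86, adjusted p = 0.128). Atp5a1, Atp5f1, Atp5o, Uqcrc2 and Sdhc were the others. Of the 35 other assembly factors, Tmem70, which acts in ATP synthase assembly, was lower in batch 3 by -3.45 (SE 0.47, adjusted p = 0.0211). Across the 88 genes the fold change between batches 3 and 1 had a Spearman correlation of -0.035 with the GC content and 0.31 with the length of the transcript, against -0.126 and -0.013 over 12080 genes.

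Batch 2 was likewise set against batch 1. edgeR's quasi-likelihood test called 1 of the 88 genes, Ndufs4, among 21 genes in all (0.139%), and 39 of the 88 had an unadjusted p under 0.05, against 2124 genes (14.1%); 19 were lower and 20 higher in batch 2. Of the 39, 5 were also among the 17 of batch 3 against batch 1 (Ndufa6, Ndufa9, Ndufab1, Sdhc and Uqcrc2), and both comparisons share batch 1. DESeq2 called 26 of the 88 and 2043 genes (13.5%), and limma-voom 4 of the 88 (Atp5h, Cox7b, Ndufs4 and Uqcrc2) and 356 genes (2.36%). Ndufs4, a late-joining subunit of complex I whose loss in mice gives a Leigh-like encephalopathy, had 299, 720, 606 and 528 CPM in batch 2, against 213, 233, 195 and 198 CPM in batch 1 (log2 fold change 1.51, SE 0.203, adjusted p = 0.0414). That call was lost without batch 3 in the fit, without the neurons rich in astrocyte markers, without the 2 neurons of lowest summed CPM and with cells thinned to a common depth. Complex I had 23 of 36 genes lower in batch 2 (median -0.50) and complex V 8 of 17 (0.31), beside 9922 of 15091 genes lower (median -0.45). Batch 2 holds 15 neurons of fewer detected genes, and across the 88 genes the fold change had a Spearman correlation of -0.399 with the GC content of the transcript, against -0.227 over 12080 genes.

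**Figure D4:**
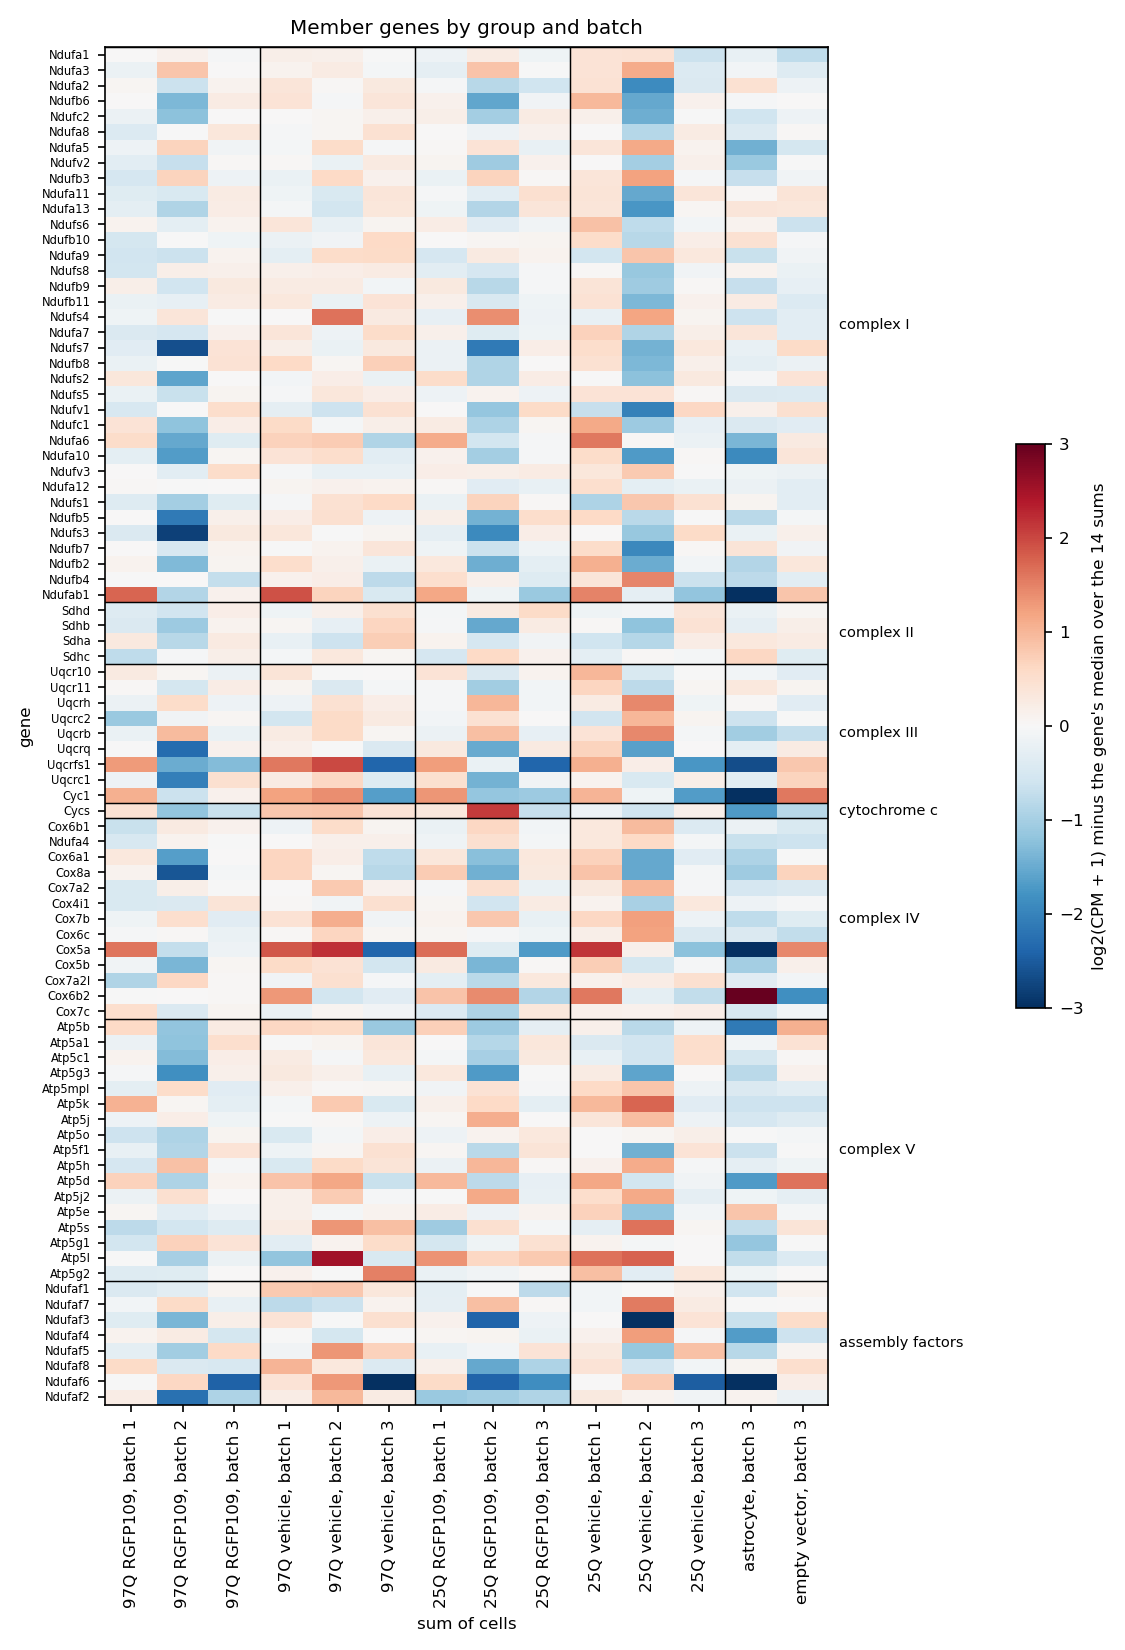
Heat map of log2(CPM + 1) minus the gene's median over the 14 sums of cells, for the 88 tested genes (rows, by complex) in each group and batch (columns), red above and blue below the gene's median; the colours stop at 3 and -3. Uqcrfs1, Cyc1 and Cox5a are red in the batch 1 columns and blue in most batch 3 columns of transgene neurons, while the empty vector column is red for them and for Atp5b and Atp5d.

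The empty vector neurons carry a batch 3 label but did not share the low levels. Cox5a had 242 CPM in the empty vector sum (172 to 407 CPM by cell), against 16.2 CPM in 97Q vehicle and 37.3 CPM in 25Q vehicle neurons of batch 3. Cyc1 had 400 CPM there (140 to 733 by cell), Uqcrfs1 210 CPM (63.3 to 493) and Atp5d 417 CPM (245 to 886). Of the 8 genes lower in batch 3 than in batch 1 at an unadjusted p of 0.05, the empty vector sum was nearer to the batch 1 mean in 6, all but Ndufa6 and Atp5k; its median distance was -0.44 from batch 1 and 2.26 from batch 3 on the log2 scale. Over all 1103 genes of that kind it was nearer to batch 1 in 624 (56.6%). Of the 9 respiratory genes higher in batch 3 it was nearer to batch 1 in 4 (44.4%), as in 316 of all 729 such genes (43.3%). The astrocytes, also of batch 3, were nearer to batch 1 in 0 of the 8, and in 135 of the 1103 (12.2%). Ndufaf6 had 25.5 CPM in the empty vector sum, but single cells ranged from 0 to 127 CPM with a median of 2.26. The construct and any unlabelled difference in handling cannot be told apart in these 9 cells.

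Set against the empty vector neurons in batch 3, 97Q vehicle neurons had 10 genes lower and 2 higher past 2-fold of the 85 with at least 10 CPM in either sum; over all genes at this level 23.7% were lower and 16.6% higher. 25Q vehicle neurons had 7 of 86 lower and 3 higher, where 18.7% of all genes were lower and 14.6% higher. Each of these is 1 sum per group, so no test was made. The 7 genes lower in 25Q vehicle (Atp5b, Atp5d, Cox5a, Cyc1, Ndufab1, Ndufaf6 and Uqcrfs1) were also among the 10 of 97Q vehicle, but both sets share the same empty vector cells. Between the transgene groups themselves, 97Q vehicle against 25Q vehicle in batch 3, 2 of 85 genes were lower past 2-fold (14.9% of all genes) and 0 higher (11.1%).

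Atp5b, the catalytic subunit of ATP synthase, had the highest CPM of the 95 genes in 7 of the 14 sums, and its level varied widely between neurons of batches 2 and 3. In batch 1, 32 of 34 transgene neurons had at least 1000 CPM. In batch 2, 5 of 15 did: 1 of 4 with 97Q RGFP109, 2 of 3 with 97Q vehicle, 1 of 4 with 25Q RGFP109 and 1 of 4 with 25Q vehicle. In batch 3, 23 of 55 did: 7 of 14, 3 of 15, 6 of 11 and 7 of 15 in the same order. All 9 empty vector neurons (2015 to 5311 CPM) and none of the 14 astrocytes (79.1 to 952 CPM) reached it. The line was drawn after the values were seen, and 6 of the 55 cells of batch 3 lay between 750 and 1500 CPM.

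**Figure D5:**
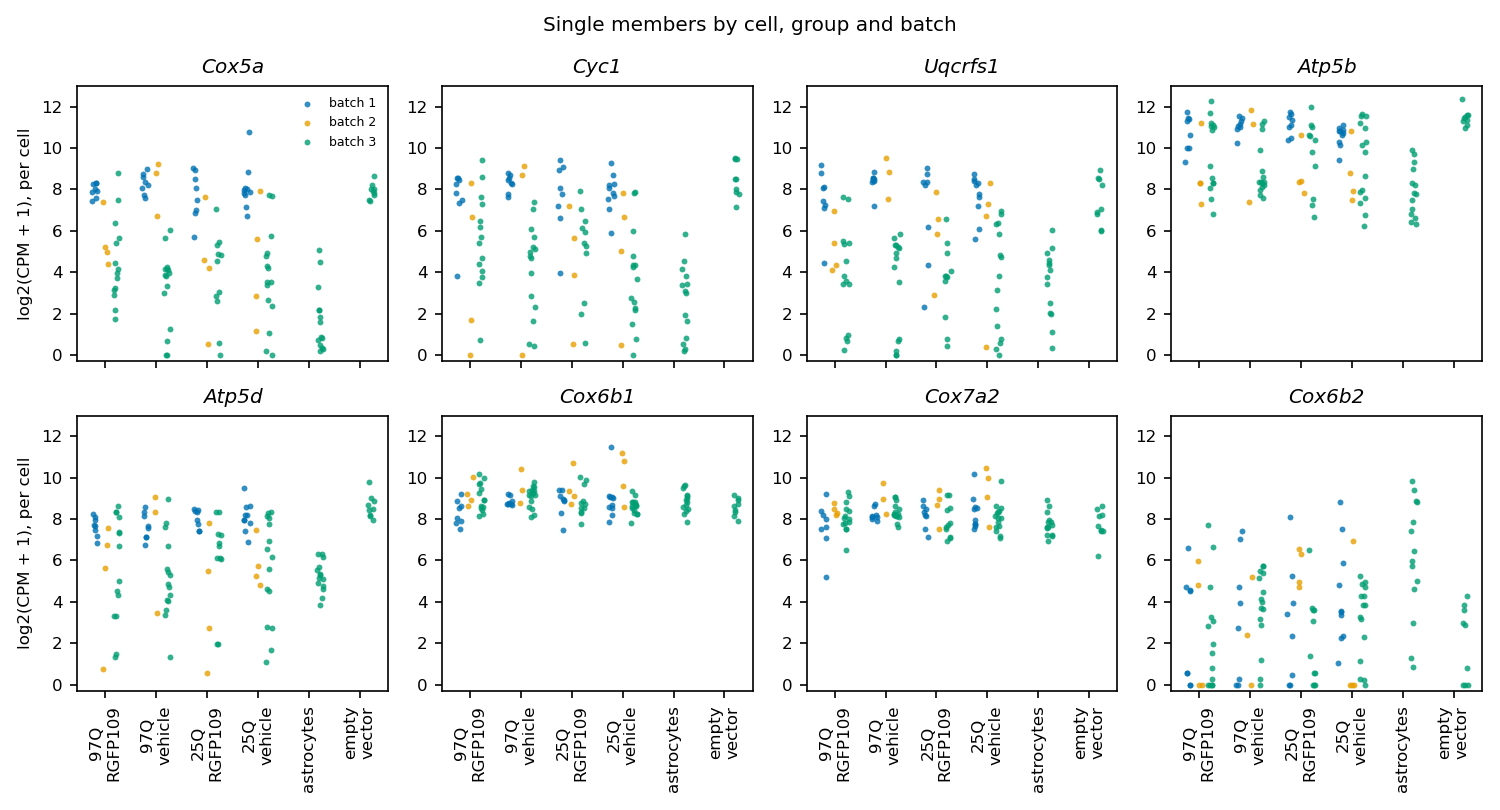
log2(CPM + 1) of 8 genes in each of the 127 cells (points), by group, coloured by batch. Cox5a, Cyc1 and Uqcrfs1 are high in batch 1 and in empty vector neurons and low in most batch 3 neurons and in astrocytes, Atp5b and Atp5d spread widely in batches 2 and 3, Cox6b1 and Cox7a2 show no such gap between batches 1 and 3, and Cox6b2 is highest in astrocytes.

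Astrocytes had the lower share of respiratory transcripts. Their sum was 16440 CPM, 1.64% of counts, against 23326 CPM, 2.33%, in empty vector neurons, and cells ranged from 11738 to 23857 CPM in astrocytes and from 16798 to 35136 CPM in empty vector neurons, so the groups overlapped. The 13 genes of the mitochondrial genome summed to 15233 CPM in astrocytes and 22075 CPM in empty vector neurons. In batch 3 they summed to 28730 CPM in 97Q vehicle and 29097 CPM in 25Q vehicle neurons. Complex II had 1829 CPM in astrocytes and 1825 CPM in empty vector neurons, but 2510 CPM in 97Q vehicle and 2019 CPM in 25Q vehicle neurons of batch 3. Complex V had 3731 CPM in astrocytes and 7925 CPM in empty vector neurons, and 5636 and 6419 CPM in those 97Q and 25Q vehicle neurons. For complex III the values were 1578, 2631, 1852 and 1978 CPM in the same order. Past 2-fold, 17 of 84 respiratory genes were lower and 1 was higher in astrocytes, against 36.4% lower and 25.9% higher over all 11266 genes at this level, and the median log2 ratio was -0.34 for both. With 97Q vehicle neurons of batch 3 in place of the empty vector neurons, 18 of 84 were lower (33.6% of all genes) and 1 higher (25.1%). With 25Q vehicle neurons they were 17 of 84 lower (34.2%) and 1 higher (24.3%).

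Against the empty vector neurons, the genes lowest in astrocytes included several that were low in batch 3. Cox5a had 5.74 CPM in astrocytes (95% Poisson interval 5.27 to 6.23) and 242 CPM in empty vector neurons (238 to 247), a log2 ratio of -5.40; these intervals cover counting error only. Cyc1 had 11.1 CPM in astrocytes and 400 CPM in empty vector neurons (-5.17), and Ndufab1 0.894 and 28.2 CPM (-4.98). Ndufaf6 (-5.07), Uqcrfs1 (-3.54) and Atp5d (-3.37) completed the 6 lowest. The cells of the 2 groups did not overlap for Cox5a, Cyc1, Ndufab1, Atp5d or Atp5b. The share of all genes whose cells did not overlap was not counted. Against the transgene neurons of the same batch Cox5a was lower by -1.50 (97Q vehicle) and -2.70 (25Q vehicle) on the log2 scale, Cyc1 by -1.91 and -1.89, and Uqcrfs1 by -0.31 and -0.95. Ndufaf6 had 0.762 CPM in astrocytes, against 0.375 CPM in 97Q vehicle and 3.18 CPM in 25Q vehicle neurons, so it was higher in astrocytes than in the first of these groups and lower than in the other. Other genes stood among the lowest there, such as Cycs (-2.48 and -2.19), Atp5g1 (-1.76 and -1.21) and Ndufaf4 (-1.73 and -1.68), named after their values had been seen. The size of the astrocyte difference for these genes depended on which neurons it was taken against.

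Cox6b2 went the other way. It had 223 CPM in astrocytes and 5.28 CPM in empty vector neurons, 42.3-fold higher, and 16.8 CPM in 97Q vehicle and 12.6 CPM in 25Q vehicle neurons of batch 3. All 14 astrocytes held a count, from 0.782 to 917 CPM with a median of 73.6, and 6 of 9 empty vector neurons did, from 0 to 18.2 CPM, so single cells overlapped. On the per-length scale its level was 583 in astrocytes and 14.7 in empty vector neurons, while Cox6b1 had 1940 in astrocytes and 1692 in empty vector neurons. Cox6b1 thus remained the higher of the 2 isoforms in both cell types. Sdhc (log2 ratio 0.99), Atp5e (0.90), Ndufs6 (0.74), Ndufa7 (0.68) and Ndufb11 (0.65) were the next highest in astrocytes, none past 2-fold.

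Across the 104 transgene neurons, with the mean of each group and batch removed, the genes varied together only loosely. The median Spearman correlation over the 3655 pairs of the 86 genes with at least 10 CPM was 0.184, against 0.04 over the pairs of all 9929 genes at this level; it was 0.265 within complexes, 0.162 between them and 0.302 within complex I. All values come from the same libraries, and sparse counts and depth are shared by the genes of a cell. Cox6b1 and Cox7a2 (0.811), Cox6b1 and Ndufa4 (0.798) and Ndufb8 and Cox4i1 (0.814) were among the closest pairs, and in batch 1 alone (34 cells) they had 0.913, 0.684 and 0.841. Atp5b and Atp5d had 0.825, made up of 0.351 in batch 1 and 0.891 in batch 3 (55 cells), and Ndufa6 and Cox8a 0.811, made up of 0.472 and 0.875. Cox5a and Cyc1 had 0.522 (0.844 in batch 1 and 0.518 in batch 3), whereas Cox5a and Cox6b1, of the same complex, had -0.043.

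Single genes differed in how they followed the rest of the chain. Against the summed CPM of all other respiratory genes, Cox6c had the highest correlation (0.71), followed by Atp5mpl (0.659) and Atp5k (0.656), and Ndufaf7 (-0.105), Uqcrfs1 (-0.096) and Atp5b (-0.034) the lowest. Among 10 genes chosen after their values had been seen, the correlation with the number of genes detected in a cell ran from -0.364 (Ndufa4) to 0.361 (Cyc1). The summed CPM of the 95 genes had a correlation of 0.349 with that of the mitochondrial genome, -0.146 with genes detected, -0.081 with the total count, 0.169 with the astrocyte markers and -0.056 with the neuron markers.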

How the data were processed

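The deposited values are read counts per gene and cell, made by the authors with FastQC, Trimmomatic 0.36, STAR 2.5 and HTSeq 0.9.1 on GRCm38/mm10, per the submitters' processing notes; neither the annotation version nor the strand setting of the counting is given in the sources used here. Symbols and biotypes came from the GRCm38 annotation, which matched 53360 of 53465 gene IDs. Counts of the cells of each group and batch were summed (12 sums of 104 neurons), since cells are not replicates, and tested with edgeR 4.0.16 (quasi-likelihood, TMM, group plus batch, 15091 genes with a count in at least 20% of neurons that also passed edgeR's expression filter; Benjamini-Hochberg adjustment over all of them). DESeq2 1.42.0, limma-voom 3.58.1 and other settings were alternatives. The fit was checked on simulated counts. Batch was the block: sums of 1 batch deviated together (r 0.107 to 0.298), those of different batches did not (-0.193 to 0.021). CPM used total counts, and differences and medians given by batch come from log2(CPM + 1) without TMM. Per-length levels divide counts by exon length. Overlapping exons and near-identical stretches (blastn, 99% identity, 50 bases) mark uncertain counts. Astrocytes and empty vector neurons form 1 sum each, so their differences were described by 2-fold steps among genes of at least 10 CPM, with no test; intervals cover counting error only.

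The members and gene lists were chosen with earlier results of these data known. Named genes were the 6 of smallest p per comparison, the extremes of level per complex, whole isoform families and the extremes between astrocytes and empty vector neurons. The comparisons between batches, the Atp5b line and genes named for them were chosen after seeing the data. The series text counts 117 neurons, and 113 were analysed here.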

Additional observations from a re-analysis of the deposited data

Results flagged for a closer look

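Within groups and batches of 4 to 10 cells, 56 sets of summed CPM were searched for a cell far from the others, and 7 were found; chance alone flags about 1 set in 20. A 25Q vehicle neuron of batch 1 stood apart in 5 of them. It had 64141 CPM over the 95 genes (the next of 10 cells had 27420), 27312 CPM for complex I (next 10225), 6443 CPM for complex III (next 2906), 16181 CPM for complex IV (next 6292) and 12574 CPM for complex V (next 7401). It had 2950780 counts and 12409 detected genes. A 25Q RGFP109 neuron of batch 2 had 5677 CPM for complex IV, the next of 4 cells 3401. An empty vector neuron had 12915 CPM for complex V, the next of 9 cells 8321.

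Rows left out as noncoding also held counts. The lncRNA row Ndufb1-ps had 91397 counts in 127 cells and the processed pseudogene row Cox6c2 19793 counts in 127 cells, while the other 11 rows had 1996 counts together. How many of these reads come from members with a similar sequence was not tested.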

How the results depend on the processing

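Of the single genes, 390 values kept direction and side of the threshold and 1 passed it (Sdhd, 97Q RGFP109 against 25Q RGFP109, DESeq2); of the summary values 246 kept theirs and 56 moved. No direction of a single gene was reversed. These genes were picked for their small p in the same data and none was called in the main fit, so little change could be seen. Without the batch as replicate block, edgeR called 0 genes and 0 members in each of the 5 comparisons, as with it. In the order 97Q against 25Q in vehicle, RGFP109 in 97Q, RGFP109 in 25Q, 97Q against 25Q in RGFP109 and interaction, DESeq2 called 213, 110, 143, 277 and 70 genes; no filter gave 1 gene for RGFP109 in 97Q and 3 for 97Q against 25Q in RGFP109, where limma-voom gave 4 and DESeq2 1 member. The member median ranged over all settings from -0.07 to 0.28, -0.28 to -0.13, -0.24 to 0.01, -0.16 to 0.05 and -0.31 to -0.07; without the cell of highest summed CPM it was 0.01 for RGFP109 in 25Q. Between batches 3 and 1, members called numbered 8 (DESeq2), 1 (size factors by relative log expression), 8 (limma-voom), 1 (no filter), 11 (without batch 2), 1 (without the top cell), 1 (thinned to 900000 counts) and 2 (mean CPM of cells). Genes called there were 1237 (DESeq2), 832 (limma-voom), 73 (no filter), 961 (without batch 2), 244 (mean CPM) and 0 to 7 when 1 group was left out. Between batches 2 and 1, members numbered 26 (DESeq2), 4 (limma-voom), 7 (mean CPM) and 0 without batch 3, without 1 group, without glial-rich neurons, without the 2 neurons of lowest summed CPM or thinned; genes numbered 2043 (DESeq2), 59 (relative log expression), 356 (limma-voom), 1 (without batch 3), 0 (without 1 group or the glial-rich neurons), 3 (without the 2 neurons of lowest summed CPM), 32 (thinned) and 293 (mean CPM). The summed CPM was 16781 (thinned) and 16785 (mean CPM) in astrocytes, and 22929 (without the glial-rich neuron), 23528 (thinned) and 23525 (mean CPM) in empty vector neurons. With a floor of 1 CPM, 2 genes were higher in astrocytes than in empty vector neurons. The causes of these changes were not tested. The batch comparisons and their alternatives were chosen after seeing the data, and 3 batches limit what any comparison of groups can detect.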
